A study of Mus musculus with 4 samples.

Results

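Immune checkpoint receptors are surface proteins that set how strongly a lymphocyte responds once it has been activated, and 10 genes of this kind were followed: Icos, Klrg1, Cd200r1, Tigit, Ctla4, Cd96, Havcr2, Cd274, Pdcd1 and Lag3. They were the rows of the deposited count table that carried one of these symbols, all 10 were found, and they make up 10 of the 27179 rows. The cells were group 2 innate lymphoid cells (ILC2s), tissue lymphocytes that lack an antigen receptor and release type 2 cytokines such as IL-5. They were sorted from the large intestine of wild-type C57BL/6 mice as CD45.2-positive, lineage-negative, CD127-positive and KLRG1-positive cells, so the protein product of Klrg1 was itself part of the gate. All cells then spent 5 days in culture with 4 cytokines at 10 ng/mL each (IL-7 and IL-2 with the alarmin IL-33 and with IL-25). After that, 2 libraries came from control cells, labelled Ctrl and called vehicle here. Another 2 came from cells given 100 μM deoxycholic acid (DCA), a secondary bile acid made by gut bacteria. The deposited design text gives 16 hours of treatment and the methods of the study give 24 hours. The comparison asks which genes differed in cultured ILC2s given DCA.

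Checkpoint receptors are known mainly from T cells. Inhibitory members carry short tyrosine motifs on the cytoplasmic side, ITIMs and ITSMs, that recruit the phosphatases SHP-1 and SHP-2 or the lipid phosphatase SHIP-1 and so dampen activating signals, whereas costimulatory members carry motifs that recruit phosphoinositide 3-kinase and strengthen them. ILC2s respond to alarmin cytokines, yet they are known to carry several of the same receptors. ICOS with its ligand promotes ILC2 survival and cytokine release, PD-1 restrains ILC2 proliferation, and KLRG1 is a standard surface marker of mature ILC2s.

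The coding stretches below show the signalling motifs found in 7 members. They were taken from GENCODE M21 transcripts on GRCm38 and are printed 5′ to 3′ on the strand of the gene, with the codons of the motif in capitals. An ITIM was searched as serine, isoleucine, valine or leucine, any residue, tyrosine, any pair of residues, and isoleucine, valine or leucine, and an ITSM as the related motif that starts with threonine and ends with valine or isoleucine. YxxM was searched as tyrosine, any pair of residues and methionine. The Lag3 stretch is the charged cytoplasmic motif specific to LAG-3. The inhibitory receptors Klrg1 (chr6:122282770-122282811, minus strand, exon 1), Pdcd1 (ITIM at chr1:94039476-94039517 and ITSM at chr1:94039407-94039448, minus strand, exon 5), Tigit (chr16:43649022-43649063, minus strand, exon 4) and Cd96 (chr16:46035912-46035953, minus strand, exon 15) gave these matches.
Klrg1 ITIM: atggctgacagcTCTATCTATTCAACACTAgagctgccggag
Pdcd1 ITIM: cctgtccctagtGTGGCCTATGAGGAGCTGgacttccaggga
Pdcd1 ITSM: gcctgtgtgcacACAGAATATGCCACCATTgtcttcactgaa
Tigit ITIM: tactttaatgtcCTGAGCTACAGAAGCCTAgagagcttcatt
Cd96 ITIM: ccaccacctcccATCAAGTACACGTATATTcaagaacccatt
The costimulatory receptor Icos (chr1:60995548-60995583, plus strand, exon 4), its inhibitory relative Ctla4 (chr1:60914634-60914669, plus strand, exon 4) and Lag3 (chr6:124904511-124904552, minus strand, exon 8) gave the following.
Icos YxxM: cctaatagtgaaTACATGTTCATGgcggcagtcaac
Ctla4 YxxM: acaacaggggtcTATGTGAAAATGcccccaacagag
Lag3 cytoplasmic motif: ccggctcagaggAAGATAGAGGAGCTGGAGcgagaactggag
Icos and Ctla4, which lie close together on chromosome 1, share the YxxM pattern although they act in opposite directions. In Klrg1 the motif lies at the start of the protein, which has its amino terminus inside the cell, whereas in the other 6 genes it lies near the end. None of these patterns was found on the cytoplasmic side of Havcr2 (chr11:46454935-46481255, plus strand), Cd274 (chr19:29367455-29388095, plus strand) or Cd200r1 (chr16:44765736-44794978, plus strand), which says only that these letters are not there.

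The library totals were 35838342 and 26564059 counts for vehicle replicates 1 and 2 and 32102232 and 244165712 for the DCA pair, the last of these being by far the deepest. Levels are given as CPM, counts scaled to the library total after TMM normalization. Where a library had 0 counts, a true level of up to 3 counts remains possible by counting error alone, or 0.115 CPM in the shallowest library and 0.0125 CPM in the deepest. ILC2 markers were high in all 4 libraries, with Gata3 at 599 to 839 CPM and Il1rl1, the IL-33 receptor, at 533 to 876 CPM, and of the 8 ILC2 markers Thy1 was at or near 0 except in DCA replicate 1 (4.24 CPM). Of the 7 T cell markers Cd4 and Cd8a were at 0 in all libraries, Cd3g and Trac were detected in all, and the summed level of the 7 was 20.6 to 33.5 CPM with vehicle against 16.1 to 27.4 CPM with DCA. Of the markers of other cell types, Csf1r (macrophages), Itgax (dendritic cells), Fcer1a (mast cells), Ncr1 and Klrb1c (natural killer cells) and Il22 (ILC3s) were at 0 in all 4 libraries. Others were not. The macrophage marker Cd68 was at 24.3 and 24 CPM with vehicle and at 7.3 and 10.2 CPM with DCA. The dendritic cell marker Xcr1 was at 24 to 46.3 CPM. The epithelial markers Epcam and Krt18 were at 3.99 to 7.85 CPM and 0.219 to 6.41 CPM. The basophil marker Mcpt8 was at 3.5 to 4.62 CPM in 3 libraries and 0 in DCA replicate 2. Gzmb, listed with the natural killer cell markers, was high and is given with Klrg1 below. No source says that the 2 libraries of a group came from separate cultures or animals, so p-values measure only the spread between these libraries, which may be technical.

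Of the 10 genes, 9 reached a mean of 1 CPM and were tested, and Lag3 was not. None of the 9 passed an adjusted p of 0.05 by edgeR's quasi-likelihood test, and neither did any other gene (0% of 11184 tested, of which 478 had an unadjusted p under 0.05). At an unadjusted p under 0.05, 1 of the 9, Klrg1, was lower with DCA, where 1.73% of all genes tested were, and none was higher, where 2.54% were. By DESeq2 none of the 9 passed the adjusted threshold either, and Lag3 was given no adjusted p. Both DCA libraries lay above both vehicle libraries for Pdcd1 and Icos, 2 of 9, beside 18.6% of all genes tested. They lay below both for Klrg1, 1 of 9, beside 14.7%. Pdcd1 reached the mean of 1 CPM only through the DCA libraries (vehicle mean 0.649 CPM), whereas Lag3, with counts only in a vehicle library, was left out. The filter thus bears on the directions seen among the 9. The fitted log2 change was positive in 4 and negative in 5, with a median of -0.07 beside 0.01 over all genes tested. The median gap between the 2 vehicle libraries, in log2(CPM + 1), was 0.72 for the 9 genes and 0.56 over all genes tested, and that between the 2 DCA libraries was 0.39 and 0.41. Summed over the 10 genes, the vehicle libraries held 4519 and 4540 CPM and the DCA libraries 4502 and 4262 CPM. In bulk RNA, fewer cells that carry a receptor and less RNA of it per cell cannot be told apart.

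**Figure D1:**
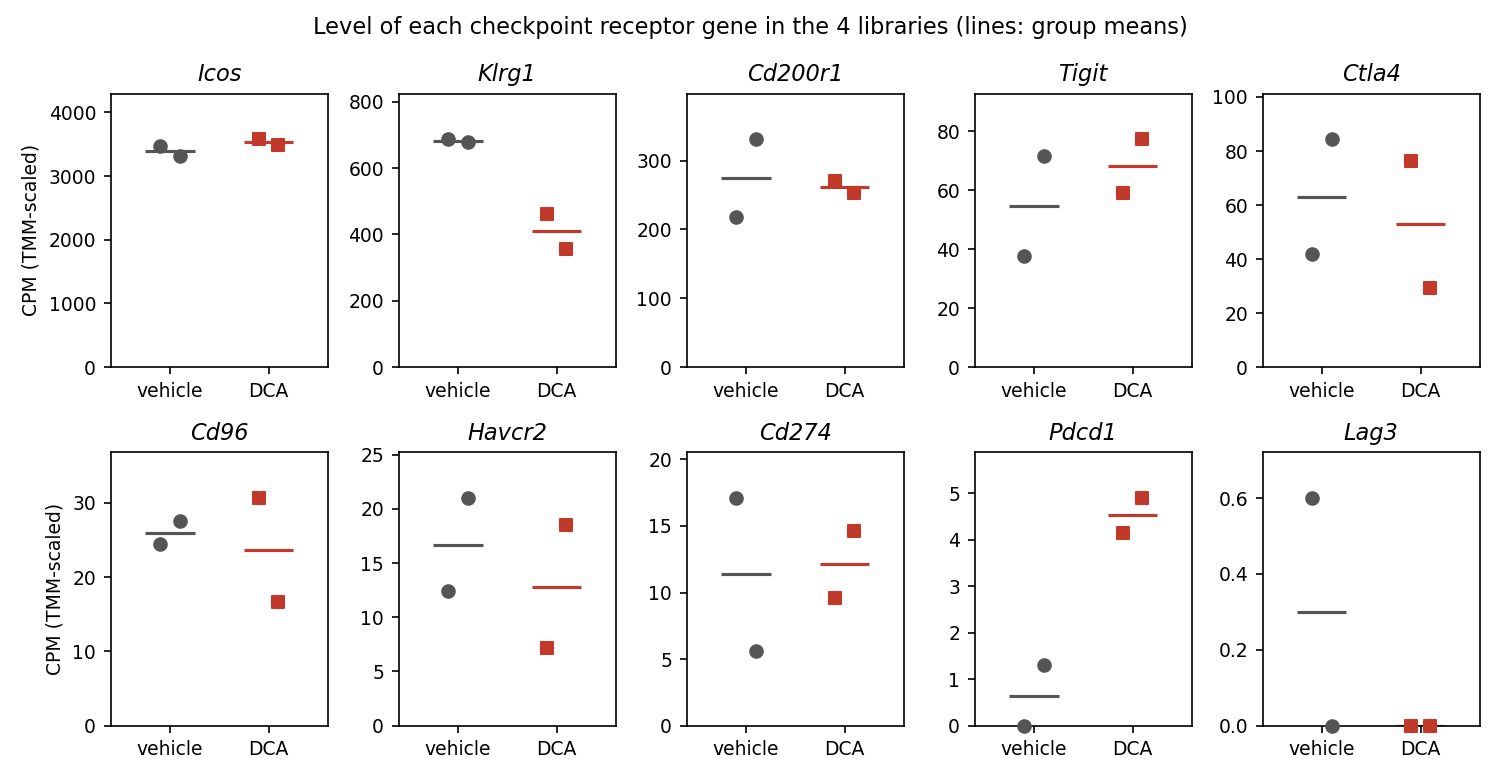
Level of each of the 10 genes in CPM after TMM scaling, with 1 panel per gene, a point per library (circles for vehicle, squares for DCA) and a line at each group mean. The y axis starts at 0 and differs between panels. Klrg1 sat at 688 and 678 CPM with vehicle and at 463 and 356 CPM with DCA, Icos stayed between 3320 and 3582 CPM, and the libraries of the 6 genes from Cd200r1 to Cd274 overlapped between treatments.

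Icos encodes the inducible costimulator, the one clearly costimulatory receptor among the 10, and it held most of their RNA. It was at 3480 and 3320 CPM with vehicle and at 3582 and 3492 CPM with DCA. The DCA libraries lay above the vehicle libraries by a narrow margin, and libraries of the same treatment were 1.05-fold apart with vehicle and 1.03-fold apart with DCA. Its fitted log2 change was 0.06 (SE 0.04 from the spread of log2(CPM + 1), edgeR adjusted p = 0.999). A single gene thus took 0.327% to 0.361% of all counts of a library, and 73.1% to 81.9% of the summed CPM of the 10 genes.

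Klrg1, the killer cell lectin-like receptor that binds E-cadherin and other cadherins and inhibits through its ITIM, stood next in level. It was at 688 and 678 CPM with vehicle, 683 ± 6.97 (SD, n = 2), and at 463 and 356 CPM with DCA, 409 ± 75.5 (SD, n = 2). Both vehicle libraries were high and nearly equal, and both DCA libraries were lower and differed more from each other. The fitted level with DCA was 0.6 of that with vehicle, a log2 change of -0.74 (SE 0.19, edgeR adjusted p = 0.999). DESeq2 gave an adjusted p of 0.0778, and over 13 alternatives the adjusted p ran from 0.0778 to 1. In 12 of the 13 the unadjusted p passed 0.05, the exception being the fit without DCA replicate 2, with a log2 change of -0.56. Beside an unadjusted edgeR p of 0.0154, the exact two-sided permutation p over the 4 libraries was 0.333, the smallest that 2 against 2 libraries can give.

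The lower Klrg1 level did not depend on how libraries were scaled, since the ratio to Icos within a library showed it as well. For every 100 Icos counts, the vehicle libraries held 19.8 and 20.4 Klrg1 counts and the DCA libraries held 12.9 and 10.2. The cells had been sorted on KLRG1 protein before the culture, so the vehicle level is that of a population chosen for the receptor. KLRG1 is also carried by natural killer cells, whose markers Ncr1 and Klrb1c were at 0 in all libraries. Gzmb, a granule gene that activated lymphocytes of other kinds use as well, made up nearly all of the summed level of the 4 natural killer cell markers, 9750 to 13300 CPM with vehicle against 5610 to 8250 CPM with DCA. The summed level of the 8 ILC2 markers was 10200 to 11500 CPM with vehicle against 12300 to 14700 CPM with DCA, most of it from the cytokine gene Il5. Of these 8, Il1rl1 was lower in both DCA libraries, as Klrg1 was. It was at 832 and 876 CPM with vehicle and at 598 and 533 CPM with DCA. Il7r, whose product CD127 was also in the gate, was higher in both. It was at 373 and 350 CPM with vehicle and at 582 and 461 CPM with DCA. Il5 was higher in both as well, and Gata3, Rora, Il17rb, Ptprc and Thy1 overlapped between treatments. The summed level of 5 macrophage and monocyte markers was 24 to 24.6 CPM against 7.3 to 10.2 CPM, nearly all from Cd68. The part of these shifts in the Klrg1 result was not tested.

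Cd200r1 encodes the receptor for CD200, which restrains myeloid cells and ILC2s through the adaptor proteins DOK1 and DOK2 and has no ITIM. It was at 217 and 331 CPM with vehicle and at 271 and 253 CPM with DCA. Both DCA libraries lay between the vehicle libraries. The log2 change was -0.07 (SE 0.31, edgeR adjusted p = 0.999).

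TIGIT and CD96 bind the same ligand, the poliovirus receptor, and both compete with the activating receptor DNAM-1. Tigit was at 37.8 and 71.7 CPM with vehicle and at 59 and 77.3 CPM with DCA, with the highest value in DCA replicate 2 and the lowest in vehicle replicate 1. Its log2 change was 0.32 (SE 0.49, edgeR adjusted p = 0.999). Cd96 was at 24.5 and 27.5 CPM with vehicle and at 30.7 and 16.7 CPM with DCA. Its DCA libraries lay on either side of the vehicle libraries, with a log2 change of -0.13 (SE 0.43, edgeR adjusted p = 0.999).

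Ctla4 encodes the inhibitory receptor that takes the B7 ligands away from CD28. It was at 41.9 and 84.4 CPM with vehicle and at 76.4 and 29.3 CPM with DCA. A low and a high library thus stood in each treatment, 2.01-fold apart with vehicle and 2.61-fold apart with DCA. Its log2 change of -0.26 (SE 0.84, edgeR adjusted p = 0.999) was smaller than either gap. Against Icos, its neighbour on the chromosome, its count ran unevenly too, since the ratio of Ctla4 to Icos within a library was higher in vehicle replicate 2 and DCA replicate 1 than in the other 2 libraries.

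Havcr2 encodes TIM-3, an inhibitory receptor of chronically stimulated T cells that signals through tyrosines outside an ITIM. It was at 12.4 and 21 CPM with vehicle and at 7.17 and 18.5 CPM with DCA, with a low and a high library in each treatment. The log2 change was -0.38 (SE 0.72, edgeR adjusted p = 0.999). Cd274 encodes PD-L1, the ligand of PD-1 and so the one ligand among the 10. It was at 17.1 and 5.61 CPM with vehicle, 3.05-fold apart, and at 9.62 and 14.6 CPM with DCA, both between the vehicle values. The log2 change was 0.09 (SE 0.78, edgeR adjusted p = 0.999). An exon of Cd274 overlaps a gene annotated on the opposite strand (AC119228.1), and as the strand setting of the counting is not given, reads of the pair cannot be told apart.

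Pdcd1, the gene of PD-1, was scarce. Vehicle replicates 1 and 2 held 0 and 34 counts of it, or 0 and 1.3 CPM, whereas the DCA libraries held 134 and 1181, or 4.14 and 4.91 CPM. The treatments did not overlap. The fitted log2 change was 2.81 (edgeR adjusted p = 0.999). On the scale of log2(CPM + 1), from which SEs are taken, the difference was 1.86 (SE 0.61). At the level of vehicle replicate 2, vehicle replicate 1 would have held 47.5 counts where it had 0, so the vehicle libraries differed from each other by more than counting error. The mean DCA level was 3.49-fold that of vehicle replicate 2 and at least 55.2-fold higher than vehicle replicate 1 at its limit of 3 counts. Without vehicle replicate 1 the log2 change was 1.77 (edgeR adjusted p = 0.722), and without vehicle replicate 2 the unadjusted p was under 0.05 and the adjusted p = 0.317.

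Lag3, whose product binds MHC class II molecules and other ligands and inhibits T cells, was near absent. It had 22 counts in vehicle replicate 1, or 0.6 CPM, and 0 in the other 3 libraries. At the level of vehicle replicate 1, DCA replicate 2 would have held 145 counts, DCA replicate 1 19.4 and vehicle replicate 2 15.7. The gene was thus seen in a single vehicle library and in neither DCA library, and with the other vehicle library also at 0 it gives no fold change between treatments.

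**Figure D2:**
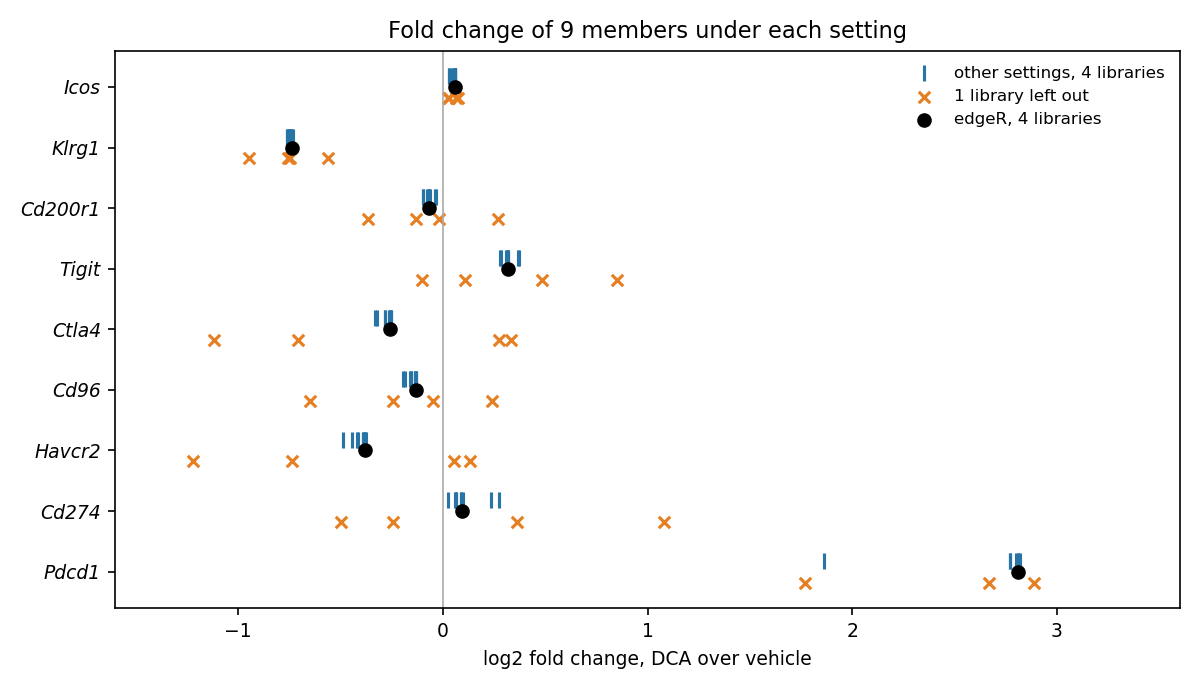
Log2 fold change (x axis, DCA over vehicle) of the 9 tested genes by edgeR with 4 libraries (black circles), under the other settings with 4 libraries (blue ticks) and with 1 library left out (orange crosses). Klrg1 stayed below 0 and Icos and Pdcd1 above 0 at every setting that tested them, whereas each of the other 6 crossed 0 when 1 library was left out, and the Pdcd1 values of 11.9 without vehicle replicate 2 and 5.09 with a replicate block lie beyond the axis.

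The direction of the 6 genes with overlapping libraries rested on single libraries. Ctla4 gave a log2 change of -1.12 without DCA replicate 1 and 0.33 without vehicle replicate 2. Havcr2 gave -1.22 when DCA replicate 2 was left out and 0.13 when DCA replicate 1 was, and Cd274 gave -0.50 without vehicle replicate 2 and 1.08 without vehicle replicate 1. For Tigit, Cd200r1 and Cd96 the values ran from -0.10 to 0.85, from -0.37 to 0.27 and from -0.65 to 0.24.

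Levels of different genes were compared per length, as CPM per kilobase of merged exons. Icos was highest at a mean of 1010, followed by Klrg1 at 386, Cd200r1 at 80, Tigit at 66.9, Ctla4 at 24.9, Cd96 at 11.4, Havcr2 at 5.43, Cd274 at 3.24, Pdcd1 at 1.34 and Lag3 at 0.0713. The ranges over the 4 libraries did not overlap between Icos (968 to 1040) and Klrg1 (252 to 486), between Klrg1 and Cd200r1 (64.9 to 98.9), or between Tigit (41.1 to 84.1) and Ctla4 (12.6 to 36.2). Cd200r1 and Tigit overlapped, as did each pair of neighbours from Ctla4 down to Lag3, so the ranges do not separate these neighbours. Genes further apart could be separate, as Ctla4 lay wholly above Havcr2 (2.64 to 7.73). Within every library Ctla4 was above Cd96, Cd96 above Havcr2 and Cd274 above Pdcd1. The other overlapping neighbours changed places between libraries. Among the 10792 tested genes with a length, Icos stood at the 99.7th percentile of mean level per kilobase, Klrg1 at 98.7, Tigit at 91 and Pdcd1 at 20.7. The order was the same with the length of the longest coding transcript.

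**Figure D3:**
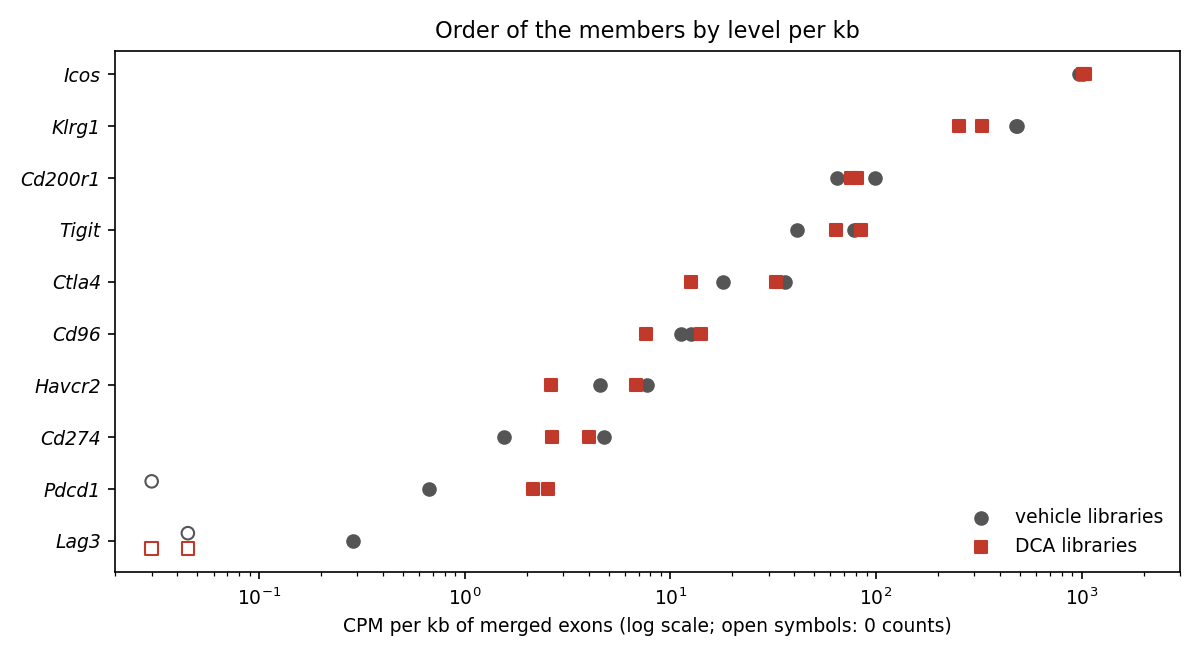
CPM per kilobase of merged exons (log scale) of the 10 genes, in order of mean level, with a point for each of the 4 libraries (circles for vehicle, squares for DCA). Open symbols at the left edge are libraries with 0 counts and have no position on the scale. Icos at 968 to 1040 and Klrg1 at 252 to 486 stood clear of the rest.

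The ligands, relatives and signalling partners of these receptors were listed as 63 genes in 7 roles, of which 62 were in the table and 41 were tested. None passed an adjusted p of 0.05 by edgeR. At an unadjusted p under 0.05, 1 of 41 was higher with DCA (Vsir), where 2.54% of all genes tested were, and 0 were lower, where 1.73% were. Both DCA libraries lay above both vehicle libraries in 8 (18.6% of all genes tested did) and below in 7 (14.7%). The fitted log2 change was positive in 21 and negative in 20, with a median of 0.00 that was the same with Vsir set at its lower bound.

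In the role of the CD28 and B7 family, which here also holds the TNF receptor family gene Tnfrsf14, 6 of 10 genes were tested. All 6 had a positive fitted log2 change, with a median of 1.55, where 5672 of all 11184 genes tested were positive. In 2 of the 6 both DCA libraries lay above both vehicle libraries (18.6% of all genes tested did). Vsir and Tnfrsf14 (0.0273 and 0.153 CPM with vehicle, 3.65 and 1.06 CPM with DCA) reached the mean of 1 CPM only through the DCA libraries. Cd80 (0 and 0.763 CPM with vehicle, 0 and 0.357 CPM with DCA) was not tested. The filter thus bears on the directions seen among the tested genes. Cd28, the costimulatory receptor that competes with CTLA-4, was at 67.4 and 90.1 CPM with vehicle and at 150 and 87.3 CPM with DCA, which overlapped (log2 change 0.59, SE 0.44, edgeR adjusted p = 0.999). Pdcd1lg2, the gene of the second PD-1 ligand PD-L2, was at 1.26 and 11.2 CPM with vehicle and at 24.7 and 11 CPM with DCA, with vehicle replicate 1 far below the other 3 (edgeR adjusted p = 0.999).

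Vsir encodes VISTA, an inhibitory B7-like protein that acts as both ligand and receptor. Neither vehicle library held a count of it, and the DCA libraries held 158 and 573, or 4.89 and 2.38 CPM. The mean DCA level was at least 37-fold higher than the vehicle level at its limit of 3 counts per library, and the lower DCA library at least 24.2-fold higher. The edgeR adjusted p was 0.999, with an unadjusted p under 0.05, and the DESeq2 adjusted p was 0.0055. The gene lies inside Cdh23 on the opposite strand, which was at 1.34 and 3.21 CPM with vehicle and at 1.18 and 2.68 CPM with DCA. With vehicle, Cdh23 had 49 and 84 counts where Vsir had 0. The strand setting is not known, and whether reads of the pair were mixed was not tested.

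The remaining roles gave no unadjusted p under 0.05. In the nectin axis, the ligands of TIGIT and CD96, Pvr was at 10 and 0 CPM with vehicle and at 3 and 5.06 CPM with DCA, and Nectin2 was at 2.13 and 0.725 CPM with vehicle and at 1.05 and 1.1 CPM with DCA. Of the TIM-3 ligands, Lgals9 (galectin-9) was at 281 and 240 CPM with vehicle and at 305 and 216 CPM with DCA, and Hmgb1, a chromatin protein that TIM-3 binds, was at 623 and 710 CPM and at 601 and 561 CPM, both DCA libraries being lower by a small margin (edgeR adjusted p = 0.999). In the CD200 and KLRG1 axis, Cdh1, the gene of the KLRG1 ligand E-cadherin, had 0 to 4 counts per library. Cdh2, another cadherin gene of this role, was at 11.6 and 0.0763 CPM with vehicle. With DCA it was at 5.44 and 0.956 CPM, which overlapped (edgeR adjusted p = 0.999). Cd200r3, a relative of CD200R1 that signals through the activating adaptor DAP12, was at 61.1 and 60.3 CPM with vehicle and at 132 and 79.5 CPM with DCA (log2 change 0.80, SE 0.36, edgeR adjusted p = 0.999). Cd200r4, another relative, was at 125 and 65.5 CPM with vehicle and at 62.9 and 101 CPM with DCA. Reads shared between relatives in this family could not be checked.

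Lilrb4a, an inhibitory leukocyte immunoglobulin-like receptor with ITIMs, was at 1171 and 1271 CPM with vehicle and at 1375 and 1007 CPM with DCA. Its close copy Lilrb4b was at 755 and 557 CPM with vehicle and at 618 and 454 CPM with DCA, and reads of the pair may have been split between them. Among the signalling partners, Ptpn6 (SHP-1) was at 87.9 and 111 CPM with vehicle and at 146 and 72.1 CPM with DCA. Dok2, the gene of a CD200R1 adaptor, was at 185 and 140 CPM with vehicle and at 140 and 148 CPM with DCA. Of the 10 tested in this role, both DCA libraries lay below both vehicle libraries in 4 (14.7% of all genes tested did) and above in 0 (18.6%). The 4 were Inpp5d (SHIP-1, 202 and 112 CPM with vehicle, 106 and 107.5 CPM with DCA), Dok1, and the phosphoinositide 3-kinase genes Pik3cd and Pik3r1. Each had an edgeR adjusted p of 0.999. Among transcription factors that regulate checkpoint genes, Id2, which every ILC lineage needs, was at 2811 to 3102 CPM in the 4 libraries, and Batf, an AP-1 family factor, was at 321 and 322 CPM with vehicle and at 254 and 256 CPM with DCA. The Batf libraries were close within each treatment and did not overlap, with a log2 change of -0.34 (SE 0.01, edgeR adjusted p = 0.999).

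**Figure D4:**
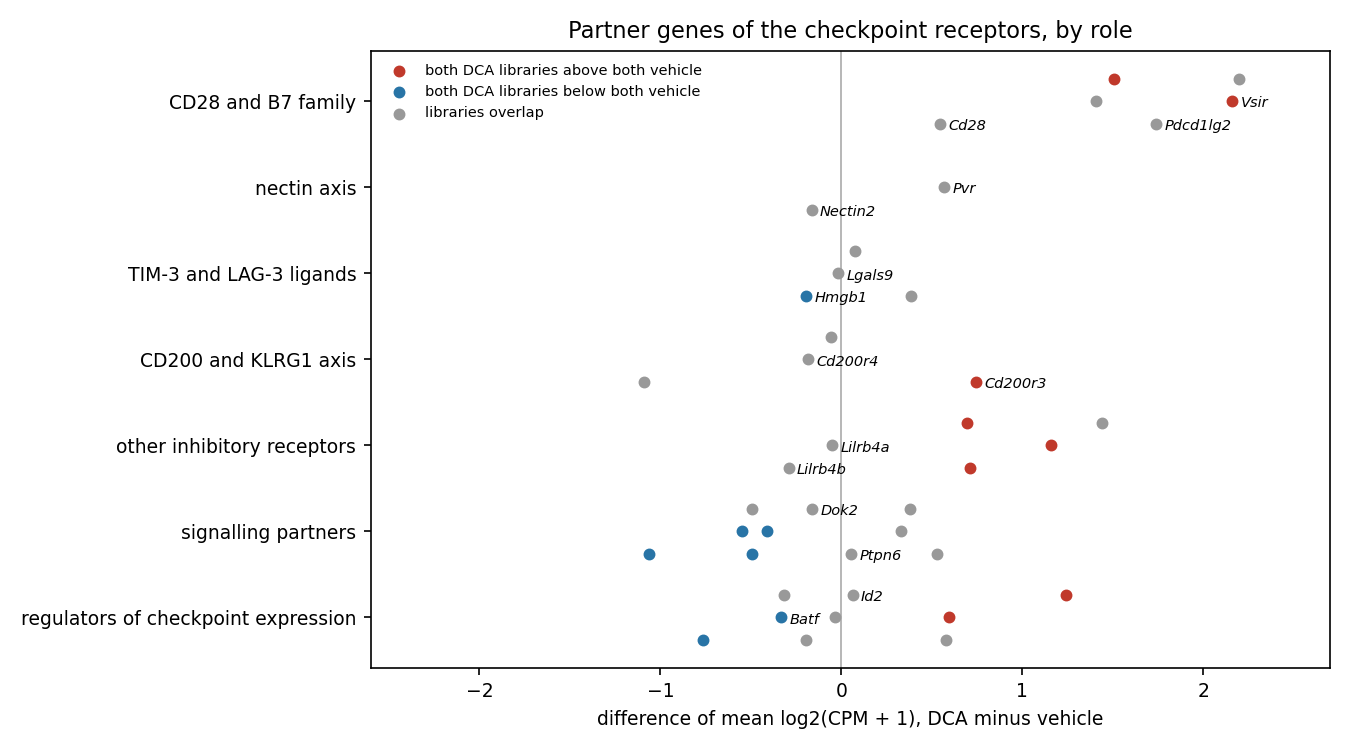
Difference of mean log2(CPM + 1) between DCA and vehicle (x axis) for the 41 tested partner genes, in 7 roles (y axis), with a point per gene coloured by whether the DCA libraries lay above both vehicle libraries (red, 8 genes), below both (blue, 7 genes) or overlapped them (grey). Only genes that reached the mean of 1 CPM are drawn, and Vsir and Tnfrsf14 reached it only through the DCA libraries. Pvr, positive here, had a fitted log2 change of -0.31.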

How the data were processed

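RNA-Seq was analysed from the gene table the authors deposited for 2 vehicle and 2 DCA libraries, assigned by name and label. The authors made full-length cDNA with SMART-Seq HT and paired-end Nextera XT libraries from it, used Cutadapt 1.9 for trimming, and used hisat2 2.2.1 for alignment to the mm10 mouse genome. The counting tool, annotation and strand setting are not given in the sources used here. The deposited table is named for FPKM, but its values are whole-number counts.

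Counts were tested with edgeR 4.0.16 in R 4.3.3 (TMM, quasi-likelihood, two-sided, Benjamini-Hochberg over the 11184 genes whose mean CPM was 1 or more). In a simulation of 11184 genes, 200 of which were moved by 2 on the log2 scale, it called 76 genes, 68 of them changed, at the spread of these libraries, and 208, including all 200, at a small spread. SEs were computed from log2(CPM + 1) across libraries. Lengths and positions come from GENCODE M21 on GRCm38, and 96.5% of tested genes had a length. The members and lists were chosen with earlier results of these data known. All members are named, and of the partners those with an unadjusted p under 0.05 and the 2 highest per kilobase in each role. Cdh1, Cdh2, Cdh23, Cd80, Cd226, Tnfrsf14, Cd86, Inpp5d, Pik3cd, Pik3r1 and Dok1 were added after their values were seen. Alternatives were 2 other scalings, 3 filters, DESeq2 1.42.0, limma 3.58.1 with a pseudocount of 1, a replicate block, leaving out each library, and DCA replicate 2 thinned to 31503637 counts.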

Additional observations from a re-analysis of the deposited data

How the results depend on the processing

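Without 1 library, the number of checkpoint genes with an unadjusted p under 0.05 ran from 0 (without DCA replicate 2) to 2 (without vehicle replicate 2), where 286 and 1231 of all 11184 genes tested had one (478 with 4 libraries), and it was 1 under each of the other 9 alternatives. The number with an adjusted p under 0.05 was 0 under all 13. The number of partner genes with an adjusted p under 0.05 was 1 by DESeq2 (Vsir) and 0 under the other alternatives that kept all libraries. Cd86 was at 16.45 and 0 CPM with vehicle and at 16.08 and 20.65 CPM with DCA. Its log2 change without vehicle replicate 1 was 13.8, with the remaining vehicle library at 0 and so no bound. Without vehicle replicate 2 it was 0.16. Over all genes that number was 36 without a filter, 253 by DESeq2, 28 without vehicle replicate 1 and 0 in the other fits. The sign turned only when a library was left out, in Ctla4 (-1.12 to 0.332), Tigit (-0.102 to 0.85), Havcr2 (-1.22 to 0.132), Cd274 (-0.498 to 1.08), Cd200r1 (-0.367 to 0.268) and Cd96 (-0.649 to 0.241), and the cause was not tested. It did not turn in Klrg1 (-0.949 to -0.561), Icos (0.0235 to 0.0753) or Pdcd1 (1.77 to 11.9, the last with the remaining vehicle library at 0 and so no bound). Fits without a library leave 1 in its group, which is assumed to vary like the other group. The median over the checkpoint genes ran from -0.246 to 0.0753.

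Same-numbered libraries deviated from their group means with a correlation of 0.0197 across genes, so the numbers are not read as pairs. With a replicate block Klrg1 was at -0.75 (edgeR adjusted p = 1) and 0 checkpoint genes and 0 partner genes passed. With 2 libraries per group no exact p is under 0.333.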
